A study of Mus musculus with 9 samples.

Results

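A set of 9 transcripts known from connective tissue and muscle was followed through the deposited blood columns of arthritic and healthy mice: Col1a1, Col1a2, Col3a1 and Sparc of the extracellular matrix, Ttn, Myh4 and Tnnt3 of striated muscle, and the muscle actins Actc1 and Acta2. These 9 genes, of the 23499 in the table, were taken by name, and they had been picked with earlier results on the same blood columns known. Their values in the comparison of arthritic with healthy blood are therefore given as a description and carry no test. Blood came from 5 arthritic mice, numbered 1, 3, 4, 5 and 6, and from 4 healthy mice, numbered 1 to 4, all of them female and of strain 129SvE. The disease stage was labelled 1.5 in arthritic mice 1 and 4, 2 in mouse 3, 1.5 to 2 in mouse 5, 2 to 2.5 in mouse 6 and 0 in the healthy mice, and the sample labels give the tissue both as PBMC, the mononuclear fraction, and as blood. No source used here gives the age of the mice or how arthritis was brought about in them. Cells were profiled by Seq-Well, which captures single cells with barcoded beads in small wells and reads each transcript from its polyA end.

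Type I collagen, the main fibre of bone, tendon and skin, is a triple helix of chains encoded by Col1a1 and Col1a2, and fibroblasts and osteoblasts secrete it in bulk together with type III collagen and the collagen-binding protein SPARC. Striated muscle contracts by sliding myosin filaments along actin filaments, with titin as the elastic link of the sarcomere and the troponin complex as its calcium switch. Circulating granulocytes and lymphocytes make neither tissue, and their own filaments are built of the cytoplasmic actins.

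The matrix genes lie apart in the genome (GRCm38, GENCODE release M21). Col1a1, the alpha 1 chain of type I collagen, spans chr11:94936224-94953042 on the plus strand. Col1a2, its alpha 2 chain, spans chr6:4504814-4541544 on the plus strand. Col3a1, the chain of type III collagen, spans chr1:45311538-45349706 on the plus strand, and Sparc spans chr11:55394500-55423183 on the minus strand. Of the muscle genes, Ttn, titin, spans chr2:76703980-76982547 on the minus strand. Myh4, the myosin heavy chain of the fastest fibres, spans chr11:67238029-67260446 on the plus strand. Tnnt3, fast skeletal troponin T, spans chr7:142498836-142516009 on the plus strand. Actc1, cardiac alpha actin, spans chr2:114047282-114053548 on the minus strand, and Acta2, the alpha actin of smooth muscle and myofibroblasts, spans chr19:34241090-34255590 on the minus strand. All 9 are annotated as protein coding.

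The blood table held 4310 columns, each with a cell class in its name, and 6052 to 51601 units of signal per column, with a median of 11099 in arthritic and 9095 in healthy mice. Arthritic mice had 502 to 1027 columns each and healthy mice 26 to 201. In the granulocyte class the imbalance was larger, with 249 to 489 columns per arthritic mouse and 5 to 20 per healthy mouse, so that the deepest healthy granulocyte sum held 301431 units and the shallowest arthritic one 2475988. Columns were not independent of each other. Of the 4310, 1313 were identical in every gene to another blood column, 734 of them to a column of another mouse, and 704 blood columns (16.3%) were identical in every gene to a column of the joint table, where a twin always had the same class name. The share identical to a joint column ranged from 5.92% to 30.7% among the arthritic mice and from 1.49% to 33.3% among the healthy mice. It was 27.5% in the granulocyte class, 33.2% in the common myeloid progenitor class, 17.5% in the foxP3 class, 4.30% in the B class and 0% in the CD4 class. Only 1 barcode was found in both tables. Pooled over mice, 12 granulocyte genes summed to 183200 units per 1000000 in granulocyte columns and 4305 in B columns, and 8 B cell genes to 23000 in B columns and 2036 in granulocyte columns. By mouse, the granulocyte genes in granulocyte columns summed to 322100, 331700, 108200, 86480 and 64550 in arthritic mice 1, 3, 4, 5 and 6, and to 13830, 131700, 13930 and 17020 in healthy mice 1 to 4, so that 3 of the 4 healthy mice had less of them than any arthritic mouse. The foxP3 class carried 367100 units per 1000000 of 10 erythroid genes against 1035 of 8 T cell genes, and is used here only as a column name.

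In blood the signal of the 4 matrix genes lay in the myeloid classes and in 1 column of the osteoblast class. It came to 1267 units in granulocyte, 322 in common myeloid progenitor and 100 in myeloid dendritic columns, and to 1015 units in the single osteoblast column, against 36 in foxP3, 15 in B and 4 in CD4 columns. For Col3a1 the osteoblast column held 378 of 735 units. Pooled over mice and expressed per 1000000 units of the class (SPM), Col1a1 stood at 13.2 in granulocyte columns, at 21.8 in common myeloid progenitor columns and at 10.1 in myeloid dendritic columns. The latter 2 levels rest on few columns. Of the 90 Col1a1 units in progenitor columns, 2 near-alike columns of arthritic mouse 1 held 24 each. All 12 units in dendritic columns lay in 2 columns. In the 1301 B columns Col1a1 and Col3a1 were at 0, which allows up to 0.215 SPM, and in the 450 CD4 columns they were at 0 too, which allows up to 0.555 SPM. B and T lymphocytes are not a known source of collagen. The level that free transcripts give to a column was not measured, and the classes differed in their share of columns identical to a joint column as given above.

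Col1a2 had 15.5 SPM in granulocyte columns (95% Wilson interval 14.1 to 17.1), 16.0 in common myeloid progenitor columns and 20.2 in myeloid dendritic columns, against 0.358 in B columns (5 units in 5 columns) and 0.185 in CD4 columns (1 unit). Sparc followed the same order, with 9.44, 17.9 and 26.9 SPM in those 3 myeloid classes, 0.716 in B columns and 0.555 in CD4 columns. The granulocyte and B intervals did not overlap for any of the 4 matrix genes. Intervals cover counting error only and are too narrow where columns are repeated. Median depth per column was 12397 units in granulocyte and 8769 in B columns. After thinning every column to 6000 units the share of columns with any Col1a2 was 5.49% in granulocytes (10.1% before thinning) and 0.224% in B columns (0.384% before thinning).

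The 3 striated muscle transcripts were less alike. Myh4 had 5.12 SPM in granulocyte columns and 8.95 in common myeloid progenitor columns, where 29 of its 37 units came from 1 column. It was at 0 in B, CD4 and myeloid dendritic columns, the last of which allows up to 2.53 SPM and had signal of all 4 matrix genes. Tnnt3 had 10.9 SPM in granulocyte columns and 2.00 in B columns. Ttn did not separate the classes: it had 10.1 SPM in granulocyte columns (8.97 to 11.4), 10.9 in B columns (9.35 to 12.8), 9.26 in CD4 columns (7.02 to 12.2) and 14.0 in common myeloid progenitor columns.

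**Figure D1:**
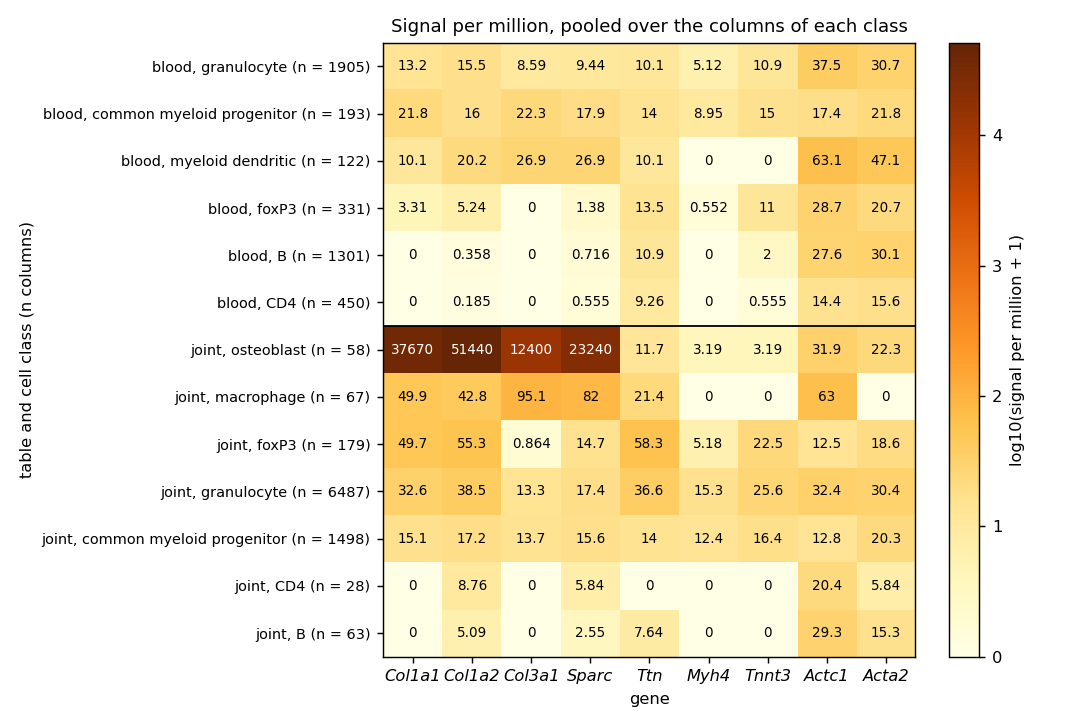
Signal per 1000000 (SPM) of each gene (columns of the grid) in each cell class (rows), pooled over all columns of the class, with blood above the line and joint below it; shade is log10(SPM + 1) and n is the number of columns. Matrix genes stand at 12400 to 51440 in joint osteoblast columns and at 0 to 0.716 in blood B and CD4 columns. Ttn, Actc1 and Acta2 stand at 9.26 to 63.1 in the blood classes shown.

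Signal of the matrix genes sat in few columns. A single column held 51.4% of all Col3a1 signal in blood, and 50% of the Col1a1 and Col1a2 signal was in 11 columns each, whereas 147 columns were needed for 50% of the Ttn signal. Any Col1a1 was seen in 208 of the 4310 columns (4.83%), any Col3a1 in 113 (2.62%) and any Myh4 in 117 (2.71%), against 1279 columns (29.7%) for Actc1 and 1256 (29.1%) for Acta2.

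The richest column for all 4 matrix genes was the 1 blood column whose class name is osteoblast, from arthritic mouse 3. It held 167 units of Col1a1, 251 of Col1a2, 378 of Col3a1 and 219 of Sparc, together 7.58% of its 13393 units, and 0 of Ttn, Myh4 and Tnnt3. Of 36 further matrix and fibroblast genes it had signal for 35, among them Dcn (106 units), Fstl1 (99), Fn1 (77) and Lum (55), and of 15 osteoblast markers, which include Bglap, Ibsp and Sp7, it had signal for 0. None of the defining markers of its class name was present, whereas nearly every matrix gene was. This column was identical in every gene to 2 joint columns of the osteoblast class.

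The richest column for the striated muscle genes came from arthritic mouse 4 and the common myeloid progenitor class. It held 9 units of Ttn, 29 of Myh4 and 53 of Tnnt3 among 30085, and signal for 26 of 38 further skeletal muscle genes, 705 units in all, led by Tnnc2 (174), Mylpf (132) and Acta1 (73). Of the 4 matrix genes it had 0 units. This column was identical in every gene to 4 joint columns of the common myeloid progenitor class. The next richest matrix columns were 3 near-alike columns of arthritic mouse 1, 1 granulocyte and 2 common myeloid progenitor by name, each with 24 units of Col1a1, 15 of Col1a2 and 16 of Sparc and with 32 or 33 of Col3a1, and none of the 3 had an identical joint column.

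Columns identical to a joint column made up 16.3% of the blood columns and held 53.8% of the Col1a1 signal, 59.7% of Col1a2, 66.3% of Col3a1 and 54.4% of Sparc. They held 48.9% of the Myh4 signal, 35.6% of Tnnt3 and 21.1% of Ttn. Without the osteoblast column, which is itself identical to joint columns, the shares were 37.4% for Col1a1, 40.9% for Col1a2, 30.5% for Col3a1 and 28.2% for Sparc. For the actins the share was close to that of the columns themselves, 18.9% for Actc1 and 17.1% for Acta2. Outside the osteoblast column, the matrix signal lay mostly in granulocyte and common myeloid progenitor columns. Of these, 27.5% and 33.2% were identical to a joint column, against 4.30% of B and 0% of CD4 columns. The actins had signal in B and CD4 columns too, and the part of class mix in these shares was not tested. Whether the repeated columns arose in the mice, in the libraries or in the making of the tables was not tested.

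**Figure D2:**
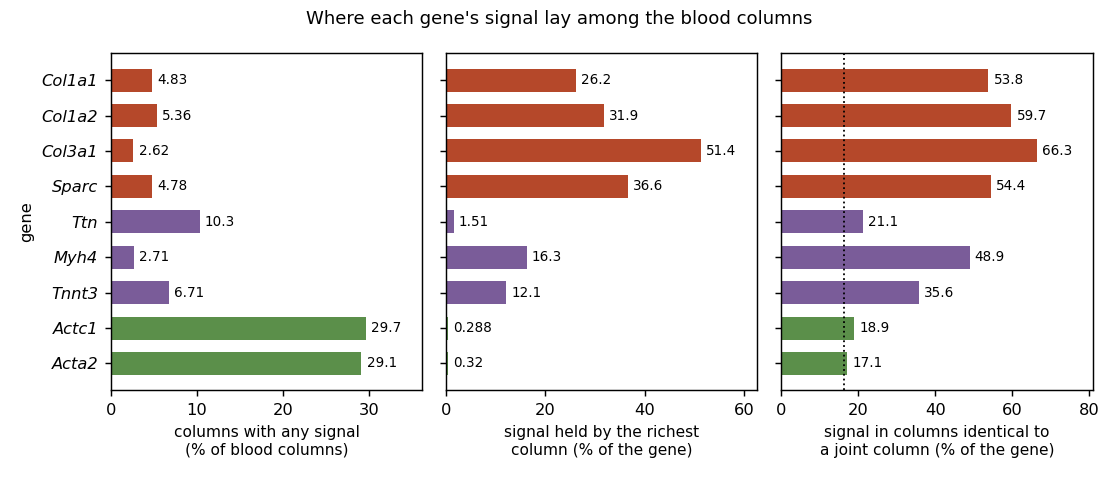
For each gene, the percent of the 4310 blood columns with any signal (left), the percent of its blood signal held by its richest column (middle) and the percent held by columns identical in every gene to a joint column (right; the dotted line is the 16.3% of columns that are identical). The 4 matrix genes hold 53.8% to 66.3% of their signal in such columns (28.2% to 40.9% without the osteoblast column) and the 2 actins 17.1% and 18.9%. Such columns make up 27.5% of granulocyte and 33.2% of common myeloid progenitor columns, which hold most of the matrix signal outside the osteoblast column.

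Matrix genes met in the same columns. Of the 231 blood columns with Col1a2, 98 (42.4%) also had Col1a1, against 2.70% of the columns without Col1a2. Sparc was present in 31.6% of the columns with Col1a2 and in 3.26% of those without, and Col3a1 in 19.0% and 1.69%. Muscle genes shared columns with the collagen too, since Myh4 was present in 16.9% of the columns with Col1a2 and in 1.91% of those without. Acta2 was not tied to collagen in this way, with 29.4% and 29.1%. Among joint columns Col1a1 was present in 48.8% of those with Col1a2 and in 12.3% of those without. Deeper columns have more of any gene, and identical columns count more than once. The blood columns without Col1a2 also include most B and CD4 columns, where Col1a1, Col3a1 and Myh4 were at 0. The part of depth, repeated columns and class mix in each such excess was not tested.

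In granulocyte columns Col1a2 was lower in arthritic than in healthy mice. Values per mouse are given as SPM scaled with TMM factors, which align the bulk of genes between mice. Col1a2 had 8.54, 10.3, 21.8, 18.3 and 10.5 scaled SPM in arthritic mice 1, 3, 4, 5 and 6, against 149, 110, 237 and 91.7 in healthy mice 1, 2, 3 and 4. Every arthritic mouse lay below every healthy mouse. The means were 13.9 ± 5.81 in arthritic and 147 ± 64.6 in healthy mice (SD, n = 5 and 4), a difference of -3.30 on the log2(SPM + 1) scale on which all such differences are given.

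Col1a1 had 9.94, 6.83, 22.3, 17.1 and 9.65 scaled SPM in the arthritic mice and 71.7, 12.2, 149 and 16.0 in the healthy mice. The groups overlapped, because healthy mice 2 and 4 lay within the arthritic range, and the log2 difference was -1.60. The healthy Col1a1 values rest on 13, 1, 17 and 4 units, so the overlap comes from the mice with 1 and 4 units. Whether the 2 chains of type I collagen differed in how far apart the groups stood was not tested.

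Sparc had 6.14 to 13.3 scaled SPM in the arthritic mice, with a median of 9.38, and 16.6, 0, 79.0 and 7.98 in the healthy mice. The healthy values fell on both sides of the arthritic range, and the log2 difference of -0.06 has no stable sign. Col3a1 went the other way, with 10.9, 4.19, 12.7, 11.7 and 5.27 scaled SPM in the arthritic mice and 5.52, 0, 0 and 3.99 in the healthy mice, where its signal was 2 units in all. It did not reach 10 SPM in enough mice to enter the fit across genes.

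The striated muscle genes showed the same pattern as Col1a2. Myh4 had 2.24, 3.74, 10.9, 3.82 and 3.80 scaled SPM in the arthritic mice, against 44.1, 36.6, 35.1 and 35.9 in the healthy mice. The healthy mice lay close together after scaling and all above the arthritic mice, and the log2 difference was -2.87. Behind the healthy values are 8, 3, 4 and 9 units of signal. Without TMM scaling the healthy mice were less close, at 56.5, 50.0, 27.4 and 29.9 SPM, against 2.37 to 9.81 in the arthritic mice. Ttn had 6.30, 7.71, 23.4, 6.24 and 5.56 scaled SPM in the arthritic mice and 33.1, 73.3, 43.9 and 79.8 in the healthy mice. Arthritic mouse 4 was the nearest to the healthy group, with no overlap, and the log2 difference was -2.55. Tnnt3 had 6.44, 5.95, 18.3, 17.5 and 5.85 scaled SPM in the arthritic mice and 27.6, 24.4, 61.4 and 71.8 in the healthy mice, again without overlap and with a log2 difference of -2.02.

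Of the 8 members that entered the granulocyte fit, 4 thus had every arthritic mouse below every healthy mouse, a pattern that 1.4% of the 7935 genes tested showed. Since this contrast chose the members, nothing is read from that count. The median log2 difference of all genes tested was 0.53, so that relative to it Col1a2 stood at -3.83, Myh4 at -3.40, Ttn at -3.08 and Tnnt3 at -2.55.

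**Figure D3:**
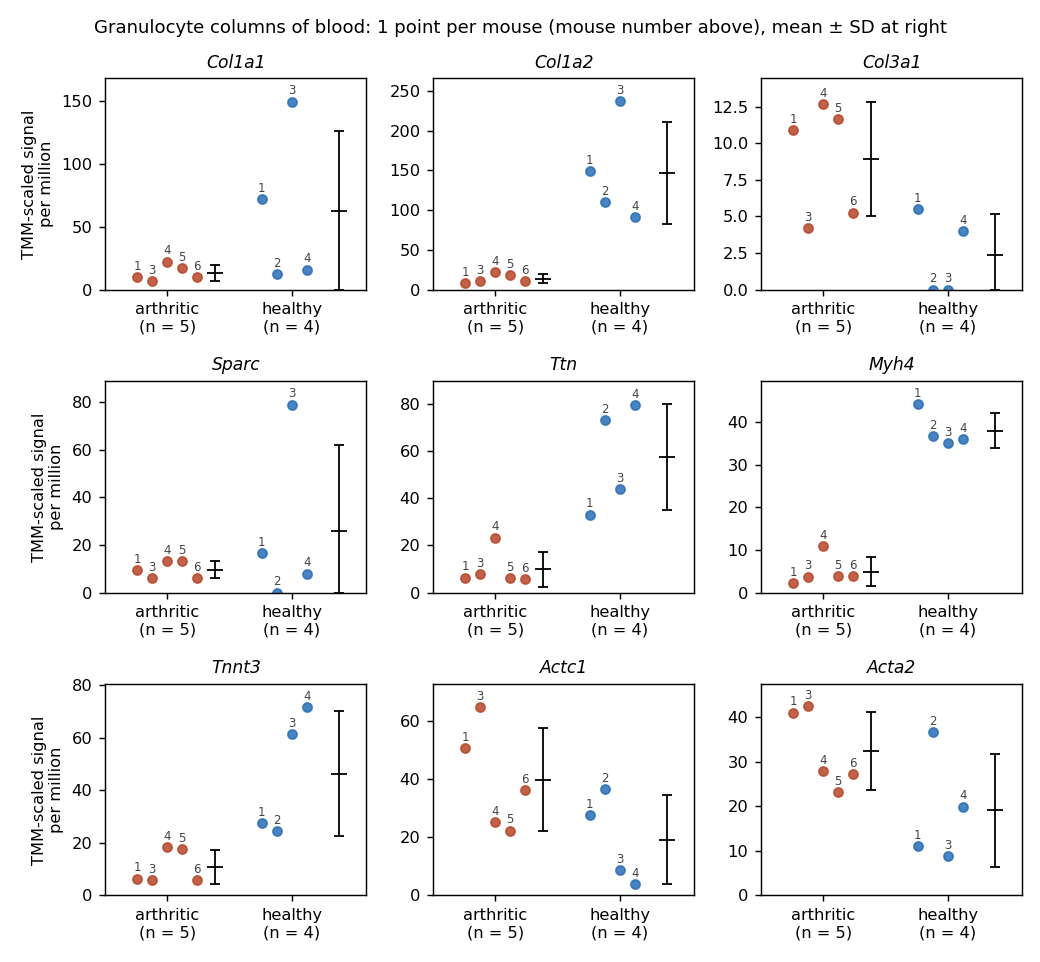
TMM-scaled SPM in granulocyte columns, 1 panel per gene, with arthritic mice at left and healthy mice at right; each point is a mouse with its number, and the bar is the mean with its SD, cut at 0. The arthritic and healthy points are apart for Col1a2, Ttn, Myh4 and Tnnt3 and overlap for the other 5 genes.

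The granulocyte markers of this class differed between the groups beside these members. They were at 13830 to 17020 SPM in healthy mice 1, 3 and 4 and at 64550 to 331700 SPM in the arthritic mice. Healthy mouse 2, at 131700 SPM, lay within the arthritic range and had 110 scaled SPM of Col1a2. That Col1a2 value rests on 9 units in 1 of its 5 columns, a column identical in every gene to one of arthritic mouse 6. It therefore says little on the marker shift. The part of this marker shift in the differences was not tested.

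Healthy values in this class rest on little signal. The 49 healthy granulocyte columns held 86 units of Col1a2, with 27, 9, 27 and 23 units in healthy mice 1 to 4. In mouse 3, 26 of the 27 units came from 1 column, and in mouse 2 all 9 came from 1 column. That column of mouse 2, with 16302 units in total and 5 of Ttn, 3 of Myh4 and 2 of Tnnt3, was identical in every gene to a column of healthy mouse 4 and to a column of arthritic mouse 6. Mouse 1 had its 2 richest columns, with 14 and 8 units, identical to 9 and 8 joint granulocyte columns. Of the 86 units, 51 (59.3%) were in columns identical to a joint column or to a blood column of an arthritic mouse, and so were 17 of the 24 units of Myh4 (70.8%) and 21 of the 37 units of Ttn (56.8%).

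Leaving out every blood column identical to a joint column kept 5, 4, 8 and 16 granulocyte columns in the healthy mice. Col1a2 then had 9.34, 6.53, 20.4, 15.7 and 6.40 scaled SPM in the arthritic mice and 68.0, 124, 259 and 65.3 in the healthy mice. The groups were still apart for Col1a2 and Myh4, with log2 differences of -3.26 and -2.66. They overlapped for Ttn and Tnnt3, with log2 differences of -2.40 and -1.84, because healthy mouse 1 lay below arthritic mouse 4. Tnnt3 had 20.7 scaled SPM in arthritic mouse 4 and 13.6 in healthy mouse 1, and Ttn had 27.6 in arthritic mouse 4 and 27.2 in healthy mouse 1. Counting identical columns once, and dropping those found in both groups, left healthy mouse 2 with 2 columns, 17919 units and 0 units of Col1a2, Ttn, Myh4 and Tnnt3. The log2 differences were then -1.47 for Col1a2, -1.57 for Myh4, -0.90 for Ttn and -0.64 for Tnnt3, and the healthy group overlapped the arthritic one through that mouse alone for all 4 genes.

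The share of granulocyte columns with any signal ran the same way. Col1a2 was found in 4.29% to 15.6% of the columns of the arthritic mice and in 18.2% to 40.0% of those of the healthy mice. The healthy shares are 4 of 13, 1 of 5, 2 of 11 and 8 of 20 columns in mice 1 to 4. They come from the same columns as the SPM values and are not separate evidence. The 1 column of healthy mouse 2 is the one identical to a column of arthritic mouse 6. After thinning to 6000 units per column the shares were 2.57% to 8.77% in arthritic mice and 15.5% to 26.7% in healthy mice. For Myh4 the thinned shares were 1.31% to 4.92% in arthritic mice and 14.8% to 25.5% in healthy mice. Before thinning, Myh4 was found in 5, 1, 3 and 5 columns of healthy mice 1 to 4, and the column of mouse 2 is again the same one.

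In B columns, where 5 arthritic mice were set against healthy mice 1, 2 and 4 with 135 columns, Ttn, Actc1 and Acta2 passed the filter on low values. Ttn had 9.22, 8.71, 11.3, 9.31 and 11.5 scaled SPM in the arthritic mice and 14.0, 16.7 and 0 in the healthy mice. Healthy mice 1 and 2 lay above all arthritic mice, and healthy mouse 4, with 15 B columns and 144191 units in all, lay below them. The means were 10.01 in arthritic and 10.25 in healthy mice. The log2 difference of 0.77 owes its sign to the 0 of healthy mouse 4, so no reversal against granulocyte columns is read from it. In B columns Actc1 and Acta2 had log2 differences of 1.92 and 1.41 with overlapping groups. Both rest in part on a 0 in healthy mouse 4 as well. Col1a2 had 4 units in arthritic and 1 in healthy B columns. In CD4 columns healthy mouse 2 supplied 79 of the 81 healthy columns and had 17.5 SPM of Ttn without scaling, against 0 to 9.85 in the arthritic mice.

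The remaining classes held few healthy columns. In the common myeloid progenitor class the healthy mice had 2 columns in all, with 1 unit of Col1a1 and 0 of Col1a2. In the foxP3 class arthritic mice had 9 units of Col1a2 in 303 columns, all in mouse 4, and healthy mice 10 units in 28 columns. In the myeloid dendritic class all of the Col1a1, Col1a2 and Col3a1 signal sat in 1 column of arthritic mouse 6 and 1 of healthy mouse 1, each with 6, 12 and 16 units of the 3 genes and 9 of Sparc. Those columns were alike in the members without being identical in every gene.

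Over all blood columns the values of the matrix and striated muscle genes overlapped between the groups. In such sums fewer columns of a class and less signal per column cannot be told apart. Col1a2 had 6.37, 18.4, 15.7, 19.1 and 4.41 scaled SPM in the arthritic mice, against 96.3, 3.46, 126 and 64.7 in the healthy mice. Healthy mouse 2, which supplied 201 of the 302 healthy columns and only 5 of the 49 healthy granulocyte columns, lay below every arthritic mouse. The log2 difference was -1.85 for Col1a2, -1.84 for Ttn, -1.73 for Myh4, -1.31 for Tnnt3, -0.72 for Col1a1, -0.20 for Sparc and, in the other direction, 1.62 for Col3a1, with overlap for each. The Col1a1 difference was -0.015 without healthy mouse 3, -0.16 without healthy mouse 1, -0.43 without arthritic mouse 6 and -1.99 without healthy mouse 2. Ttn overlapped only because arthritic mouse 4, at 17.9 scaled SPM, exceeded healthy mouse 2, at 15.8.

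**Figure D4:**
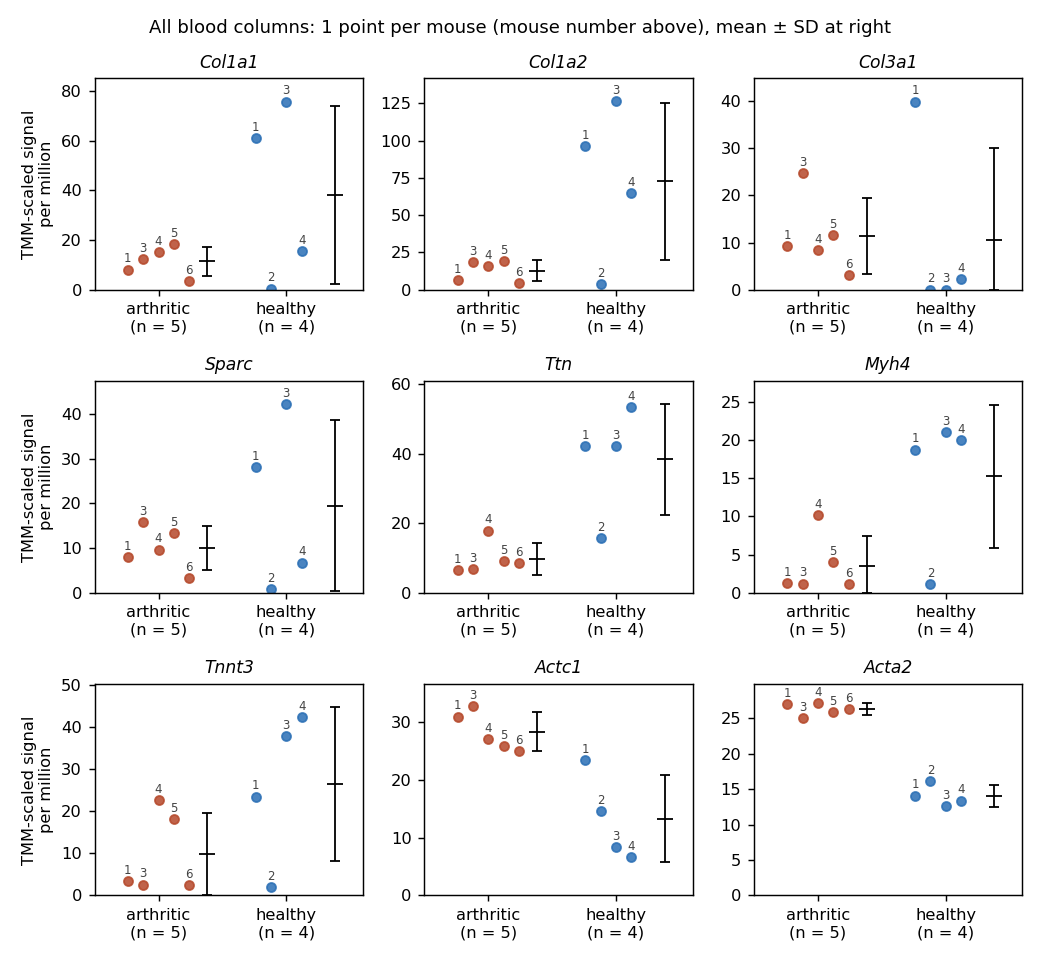
TMM-scaled SPM over all blood columns, 1 panel per gene, with arthritic mice at left and healthy mice at right; each point is a mouse with its number, and the bar is the mean with its SD, cut at 0. The groups are apart for Actc1 and Acta2, with the arthritic mice higher, and healthy mouse 2 is the lowest healthy mouse for Col1a1, Col1a2, Sparc, Ttn, Myh4 and Tnnt3.

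The muscle actins stood the other way round, higher in arthritic blood. Acta2 had 27.1, 25.1, 27.1, 25.9 and 26.3 scaled SPM over all columns in the arthritic mice, against 14.1, 16.2, 12.6 and 13.4 in the healthy mice. After scaling, all arthritic mice lay above all healthy mice. Both groups were narrow, at 26.3 ± 0.854 in arthritic and 14.1 ± 1.51 in healthy mice, with a log2 difference of 0.86. The healthy values rest on 6, 42, 3 and 6 units of Acta2. Without TMM scaling the Acta2 groups overlapped, with 14.4 SPM in arthritic mouse 5 against 17.86 and 20.45 in healthy mice 1 and 2. Actc1 had 31.0, 32.9, 27.1, 25.9 and 25.0 scaled SPM in the arthritic mice and 23.5, 14.6, 8.43 and 6.69 in the healthy mice. It too was higher in every arthritic mouse after scaling, with a log2 difference of 1.18. Its healthy values rest on 10, 38, 2 and 3 units. Unscaled, Actc1 overlapped as well, at 14.4 SPM in arthritic mouse 5 against 29.77 and 18.5 in healthy mice 1 and 2. Every arthritic mouse above every healthy one was seen for 3.64% of the 8459 genes tested over all columns. In granulocyte columns the groups overlapped for both, with log2 differences of 1.32 for Actc1 and 0.90 for Acta2.

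Actin signal was spread thinly over many columns, with at most 5 units in any 1 blood column for either gene. It was present in all 6 blood classes of more than 100 columns, at 14.4 to 63.1 SPM for Actc1 and 15.6 to 47.1 SPM for Acta2, lowest in CD4 and highest in myeloid dendritic columns. Acta1, the skeletal muscle actin, stood at 35.4 to 55.1 SPM in the same classes, and Actb, the main cytoplasmic actin, at 4477 to 9758 SPM. Over the 4310 columns the correlation of log2 levels with Actb was 0.29 for Actc1 and 0.25 for Acta2, and with Col1a2 it was -0.03 and 0.00. The columns share depth and, in part, content, so these values are descriptions only.

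The actins are close paralogs, and how reads that match several genes were treated is not stated in the labels. Actg1, the other cytoplasmic actin, stood at only 12.1 to 53.0 SPM in blood. Actc1 and Acta2 levels are therefore uncertain beside the much higher Actb level.

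The joint table held a class in which the matrix genes are abundant, and none for the muscle genes and actins. It held 8380 columns in the 7 classes used, with no column that could be tied to a labelled mouse, so it counts as 1 sample without a test. Blood granulocyte columns had 13.2 SPM of Col1a1, 15.5 of Col1a2, 8.59 of Col3a1 and 9.44 of Sparc. In the 58 joint osteoblast columns Col1a1 reached 37670 SPM, Col1a2 51440, Col3a1 12400 and Sparc 23240, together 124700 SPM. Pooled, these columns had 39830 SPM over 15 osteoblast genes, but 13 of the 58 had signal for none of them, among these the 2 columns identical to the blood osteoblast column, and 29 had signal for at least 3. Col1a1, Col1a2 and Sparc were present in all 58 of them and Col3a1 in 70.7%. The ratio of joint osteoblast over blood granulocyte levels was 2862 for Col1a1, 3314 for Col1a2, 1444 for Col3a1 and 2463 for Sparc. Only 18 of the 58 joint osteoblast columns were distinct, and counting each once lowered Col1a2 there to 29010 SPM.

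Joint granulocyte columns, 6487 of them, had more of these transcripts than blood granulocyte columns. For Ttn the blood and joint levels were 10.1 and 36.6 SPM (joint over blood 3.62), for Myh4 5.12 and 15.3 (3.00), for Col1a2 15.5 and 38.5 (2.48), for Col1a1 13.2 and 32.6 (2.48) and for Tnnt3 10.9 and 25.6 (2.35). Sparc and Col3a1 had ratios of 1.84 and 1.55. Acta2 stood at 30.7 SPM in blood and 30.4 in joint granulocyte columns, and Actc1 at 37.5 and 32.4, ratios of 0.990 and 0.863. Taken by mouse and without TMM scaling, Col1a2 had 190.7, 150.0, 185.0 and 76.3 SPM in the granulocyte columns of healthy mice 1 to 4, each above the joint granulocyte level, so that the lower pooled blood value reflects the arthritic mice, which supplied 1856 of the 1905 columns.

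No class of the joint table was a muscle class. Ttn, Myh4 and Tnnt3 summed to 86.0 SPM in joint foxP3 columns and 77.6 in joint granulocyte columns, against 18.1 in joint osteoblast columns and 0 in the 28 joint CD4 columns, which allows up to 8.76. Col1a1 and Col3a1 were at 0 in the 63 joint B columns, which allows up to 3.82 SPM, and Col1a2 had 5.09 SPM there (4 units) and 8.76 in joint CD4 columns (3 units). In joint foxP3 columns Col1a1 and Col1a2 stood at 49.7 and 55.3 SPM. Joint macrophage columns, 67 in number, had 95.1 SPM of Col3a1 and 82.0 of Sparc with 0 of Myh4, Tnnt3 and Acta2.

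Further genes of the same tissues showed no called difference in blood. Of the 36 other matrix and fibroblast genes 1 passed the filter on low values in the granulocyte fit, Fn1 (fibronectin), at 98.7 ± 72.8 scaled SPM in arthritic and 170 ± 86.7 in healthy mice, and it was not called (log2 difference -0.90 ± 0.43 SE, limma adjusted p = 0.25). The whole list summed to 82.2 to 364 SPM in arthritic and 144 to 438 in healthy granulocyte columns. Of the 38 other skeletal muscle genes 10 passed the filter, 0 were called at an adjusted p of 0.05 by limma, and for 5 the unadjusted p lay under 0.05. Of the 10, 4 had higher and 6 lower values in arthritic mice. A gene could pass the filter, 10 SPM in 4 mice, through the healthy group alone, where 3 units already come to 9.95 to 50.0 SPM, so nothing is read from the directions or from the unadjusted p.

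Atp2a1, the calcium pump of fast fibres, had 4.23 ± 2.24 scaled SPM in arthritic and 21.6 ± 5.47 in healthy mice, and so passed the filter through the healthy group. Tpm2, beta tropomyosin, had 5.85 ± 3.92 in arthritic and 19.6 ± 3.51 in healthy mice. Tnnt1, the slow-fibre troponin T, had the opposite direction, with 36.7 ± 24.9 in arthritic and 6.63 ± 5.20 in healthy mice. None of these 3 genes was called by limma. Over all genes the granulocyte fit called 52 of 7935 (0.655%) and the fit over all columns 4 of 8459 (0.0473%), while the B fit called 0 of 9585 with limma, with 677 at an unadjusted p under 0.05.

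Red cell transcripts differed between mice beside the members. In granulocyte columns 10 erythroid genes, hemoglobins among them, summed to 7316, 7327, 334800, 502100 and 70480 SPM in arthritic mice 1, 3, 4, 5 and 6, and to 221600, 216600, 532000 and 429600 in healthy mice 1 to 4. All healthy mice and arthritic mice 4 and 5 were thus rich in them. In scaled values, mice 4 and 5 also had the highest Col1a1, Col1a2 and Tnnt3 of the arthritic mice, and the lowest Actc1. Ttn did not follow, with 6.24 scaled SPM in mouse 5, below mice 1 and 3. Without TMM scaling the order did not hold for the collagen genes. Mouse 5 then had 10.6 SPM of Col1a1, below mice 1 (10.74) and 6 (13.33), and 11.35 of Col1a2, below mouse 6 (14.54). Arthritic mice 4 and 5 lay within the erythroid range of the healthy mice. They had 21.8 and 18.3 scaled SPM of Col1a2, against 91.7 to 237 in the healthy mice, and 10.9 and 3.82 of Myh4, against 35.1 to 44.1. The gap was smaller for Tnnt3, at 18.3 and 17.5 against 24.4 to 71.8 in the healthy mice, and for Ttn in mouse 4, at 23.4 against 33.1 to 79.8 in the healthy mice. Scaling without hemoglobin and mitochondrial genes gave log2 differences of -3.15 for Col1a2, -2.79 for Myh4, -2.42 for Ttn and -1.89 for Tnnt3. The part of red cell content in these differences was not tested.

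**Figure D5:**
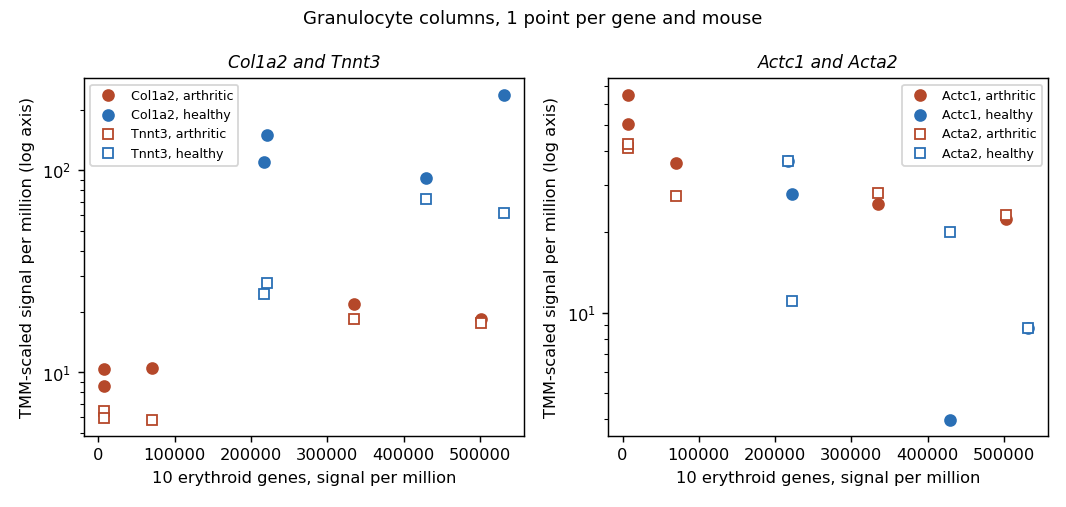
TMM-scaled SPM (log axis) in granulocyte columns of Col1a2 and Tnnt3 (left) and of Actc1 and Acta2 (right) against the summed SPM of 10 erythroid genes; each point is a gene in 1 mouse, arthritic or healthy by colour. The 3 mice with the least erythroid signal are arthritic, and arthritic mice 4 and 5, within the erythroid range of the healthy mice, have 21.8 and 18.3 of Col1a2 and 18.3 and 17.5 of Tnnt3, against healthy minima of 91.7 and 24.4.

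Markers of other blood cells were present in granulocyte columns. Monocyte and dendritic genes, 11 in number, summed to 1063 to 6456 SPM in arthritic and 2178 to 4188 in healthy mice, 8 B cell genes to 870 to 4016 in arthritic and 767 to 3759 in healthy mice, and 8 T cell genes to 55.4 to 222 in arthritic and 133 to 219 in healthy mice. Platelet and tissue lists were lower, where 11 platelet genes of the table summed to 28.8 to 60.5 SPM in arthritic and 16.7 to 89.1 in healthy mice, 8 smooth muscle and pericyte genes to 20.0 to 62.6 in arthritic and 14.1 to 50.0 in healthy mice, and 10 endothelial genes to 18.3 to 53.7 in arthritic and 16.7 to 77.7 in healthy mice. The 15 osteoblast genes summed to 22.2 to 43.4 SPM in arthritic and 53.1 to 98.9 in healthy mice, with only 14, 4, 14 and 16 units behind the values of healthy mice 1 to 4. Of that list 2 genes passed the filter and neither was called by limma. Runx2 had 13.1 ± 5.23 scaled SPM in arthritic and 6.43 ± 5.10 in healthy mice, and Ibsp had 8.47 ± 5.01 in arthritic and 19.1 ± 13.0 in healthy mice. Sp7 and Col13a1 of that list were at 0 in all blood columns. Cartilage genes were near 0 throughout, at 0.374 to 3.50 SPM in arthritic and 0 in healthy granulocyte columns.

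By likeness of log2 level over the 9 mice and all columns, the genes closest to the summed matrix members were Ccdc12 (Pearson r = 0.944), Fer (0.915), Ibsp (0.902), Commd6 (0.892) and Mrps26 (0.890), among 8451 genes compared. Those closest to the summed muscle members were Tsc22d1 (0.956), Ibsp (0.929), Tm6sf1 (0.925), Tpm2 (0.912) and 4930430F08Rik (0.907). Ibsp, the bone sialoprotein gene, stood in both lists, at a mean of 5.75 scaled SPM in arthritic and 13.25 in healthy mice. The muscle sum joins members with log2 differences of both signs. Over the 7 joint classes the closest to the matrix members were Lum (0.981), Col6a2 (0.976) and Gng11 (0.973), and to the muscle members Cxcr2 (0.964), Fpr1 (0.953) and Cd33 (0.922), which are genes of granulocytes and other myeloid cells. These likenesses rest on 9 mice or 7 classes and are the highest among many genes. The values that unrelated genes would reach were not worked out, so nothing is read from them.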

How the data were processed

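The blood columns of 9 mice and the pooled joint columns were used as deposited. Per the labels' protocols, reads followed the Drop-seq core protocol on build GRCm38.p5 (submitters' processing notes give the same build). No source used here names the aligner, the cell filter or the class caller. Values were deposited by the authors as signal, that is, whole numbers for every gene and column without scaling to a shared total. They are not treated as counts, since columns recur. All 4310 blood columns mapped to a labelled mouse. Joint columns name no labelled sample; 3 joint classes with under 20 columns, 43 in all, were not used. Signal was summed per mouse, scaled by TMM (trims of 30% and 5%) to signal per 1000000, filtered at 10 in as many mice as the smaller group, and log2-transformed after adding 1. limma 3.58.1 (R 4.3.3, trend) was fitted over all genes with Benjamini-Hochberg adjustment, for mice with at least 5 columns, and was tested on simulated data. Python 3, numpy and scipy did the rest. Mice are separate animals, and their numbers were not taken to pair arthritic with healthy mice. The members, lists and tests were chosen with earlier results of these data known. All 9 members were named, with up to 3 genes per list by p and the nearest genes by correlation.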

Additional observations from a re-analysis of the deposited data

Results flagged for a closer look

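Of 36 groups of 4 or 5 mice examined for a lone extreme mouse, 6 had one. The groups share mice and columns, and many values rest on few units, so this count cannot be set against a chance rate. Over all blood columns, Col3a1 was highest in healthy mouse 1, at 39.9 TMM-scaled SPM (signal per 1000000) beside 2.23 in the next healthy mouse, and 16 of that mouse's 17 units came from 1 myeloid dendritic column. Ttn was highest in arthritic mouse 4, at 17.9 scaled SPM beside 8.96 in the next arthritic mouse. Myh4 was lowest in healthy mouse 2, at 1.15 beside 18.8 in the next healthy mouse. In granulocyte columns, arthritic mouse 4 stood highest for Ttn, at 23.4 scaled SPM beside 7.71, and for Myh4, at 10.9 beside 3.82. Healthy mouse 1 stood highest for Myh4, at 44.1 scaled SPM beside 36.6 in the next healthy mouse, with 8 units of signal behind its value.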

How the results depend on the processing

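The direction of the log2 difference held for 8 of the 9 members, over all columns and in granulocyte columns, under the alternatives computed for single genes (other scalings, a pseudocount of 10, other column sets, a mean over columns and leaving out each mouse), and Sparc was the exception. The replicate block was not applied to single members. In granulocyte columns its difference of -0.06 became 0.21 without hemoglobin and mitochondrial genes, 0.10 with identical columns counted once, 0.017 as a mean over columns and 1.70 without columns identical to a joint column (chosen after seeing the data). It ranged from -1.01 to 1.06 when each mouse was left out in turn, and over all columns from -1.13 to 0.45. The cause was not tested. Counts of genes called were not stable. Over all columns, 4 genes were called, 19 with scaling by total signal alone, 8 without hemoglobin and mitochondrial genes, and 0 with low genes kept in, and 0 without columns identical to a joint column. Leaving out each mouse gave 0 to 64, with 64 without arthritic mouse 6. In granulocyte columns, 52 were called, 5 with median-of-ratios factors, 2 with total signal alone, 523 without hemoglobin and mitochondrial genes, 2801 without the filter, 216 with a pseudocount of 10, 313 with identical columns once and 761 without columns identical to a joint column. Leaving out each mouse gave 0 (without arthritic mouse 1, 3 or 5) to 883 (without healthy mouse 2). In B columns the count of 0 became 0 to 59 when a mouse was left out, with 59 without healthy mouse 2. With mouse number as a replicate block, 40 genes were called over all columns and 190 in granulocyte columns, over the numbers 1, 3 and 4 found in both groups, and 13 in B columns, over numbers 1 and 4. Mice of the same number had correlations of -0.29 to 0.30 over all columns, where none was nearest to its own number. In granulocyte and B columns arthritic mouse 4 was nearest to healthy mouse 4. So few correlations cannot show whether mice of the same number shared a run, and no pairing was assumed. The median log2 difference of all genes in granulocyte columns lay between 0.30 and 1.06 over the alternatives. Of 126 levels compared in the joint table, 35 moved beyond their counting interval when identical columns were counted once or columns were averaged. Depth limits the healthy granulocyte sums, where 3 units of signal correspond to 9.95 to 50.0 SPM.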
